A study of Mus musculus with 4 samples.

Results

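The inflammasome is a cytosolic complex in which a sensor protein recruits an adaptor and a caspase that matures interleukin 18 and interleukin 1 beta, and 10 genes of this pathway and of the interleukin 1 receptor family are described here. They were chosen by symbol, with earlier results of these data known. They are the sensor Aim2, the adaptor Pycard, the caspases Casp1 and Casp4, the pore former Gsdmd, the cytokine Il18 and the antagonist Il1rn. The receptor chains among them are Il1r1, Il1rl1 and Il1rap. Of these 10, 9 had a row among the 24689 genes of the expression table. Casp1, the caspase that matures both cytokines, had no row under its symbol or its Ensembl identifier and was not analysed here. Every gene with a row had a read in at least 1 library. A gene without a row may therefore have had no reads or may have been left out.

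RNA was sequenced from HT-22 cells, an immortalized mouse hippocampal line, in 2 libraries of uninduced controls (titled WT) and 2 of cells with induced Pja2 (titled Pja2-pb), all labelled as passages 21 to 24. Pja2 encodes a ubiquitin ligase, and the series title links its action to the ATP-gated channels P2rx3 and P2rx7. The means of induction, its duration and whether the induced cells are 1 clone are not stated in these sources, and the controls are called both uninduced and wild type, so a difference between lines cannot be told apart from an effect of induction. No label says that the replicates were grown as separate cultures. The p-values therefore reflect the spread between these libraries, which may be technical.

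In the textbook pathway, ATP outside the cell opens P2rx7, potassium leaves the cell, and the sensor Nlrp3 assembles with Pycard and Casp1. Aim2 does the same on meeting DNA in the cytosol, and Casp4, the mouse caspase 11, is activated directly by bacterial lipopolysaccharide. The active caspases cut Gsdmd, whose freed end forms pores in the membrane through which mature interleukin 18 leaves. On receiving cells, Il1r1 binds interleukin 1, Il1rl1 binds interleukin 33, and both signal only after pairing with the shared chain Il1rap, while Il1rn occupies Il1r1 without signalling.

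The libraries held 25787452 to 35262653 reads in genes. Values are normalized reads, recovered from the deposited log2 values, with mean ± SD and n = 2 per group unless stated. Pja2 had 6167 and 5881 normalized reads in control libraries and 54830 and 54244 in induced libraries, the direction the labels give. P2rx7 rose 2.06-fold, with 155 and 154 in control libraries and 329 and 307 in induced libraries (limma log2 fold change 1.04, SE 0.14, adjusted p = 0.0249). P2rx3 had 66.6 and 59.0 in control libraries and 17.4 and 38.0 in induced libraries and did not pass (adjusted p = 0.201).

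The label of hippocampal neuron was set against marker genes. Of 16 neuronal markers 9 had a row. Rbfox3 and Map2 had none, which may mean no reads or genes left out. Dcx had 3, 0, 2 and 0 reads in control replicates 1 and 2 and induced replicates 1 and 2. Tubb3 and Syn1, also neuronal markers, had 495 reads or more in each library. The exons of Syn1 overlap those of Araf, so some of its reads may belong to that gene. The 11 fibroblast markers summed to 181401 to 198512 normalized reads per kilobase of exon, against 644 to 751 for the neuronal markers. Most of the fibroblast sum was S100a4, whose exons overlap Gm42674, and without it, a choice made after its values were seen, the sum was 51484 to 58103. Not every fibroblast marker was high: Lum had 3, 13, 0 and 3 reads in the same order of libraries. Col3a1 and Dcn were called lower in induced cells (limma log2 fold change -0.64 and -1.72, adjusted p = 0.0309 and 0.0259). Of 8 astrocyte markers 6 had a row, and they summed to 613 to 762 normalized reads per kilobase. Marker levels do not settle the cell type, so the cells are called HT-22 cells here, not neurons.

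None of the inflammasome and interleukin 1 family genes was called as changed. Of the 9 with a row, 5 passed the filter of a mean of at least 1 CPM (CPM, reads scaled to the library's total) and were tested: Aim2, Casp4, Il18, Il1r1 and Il1rl1. Of those 5, 0 rose and 0 fell in limma's test at an adjusted p of 0.05 over 13276 genes, where 3.42% of all tested genes were called. With limma voom on the recovered reads 0 of the 5 were called, against 3.43% of all tested genes. In limma's test on the log2 values 2 of the 5, Il1r1 and Il1rl1, had an unadjusted p under 0.05, as did 19.1% of all tested genes. Their median log2 fold change was 0.21, with 3 above 0 and 2 below, against a median of 0.0025 over all tested genes, of which 50.4% lay above 0. In 3 of the 5 both induced libraries lay above both controls and in 1 below, against 26.2% and 25.1% of all tested genes, 51.3% in all.

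**Figure D1:**
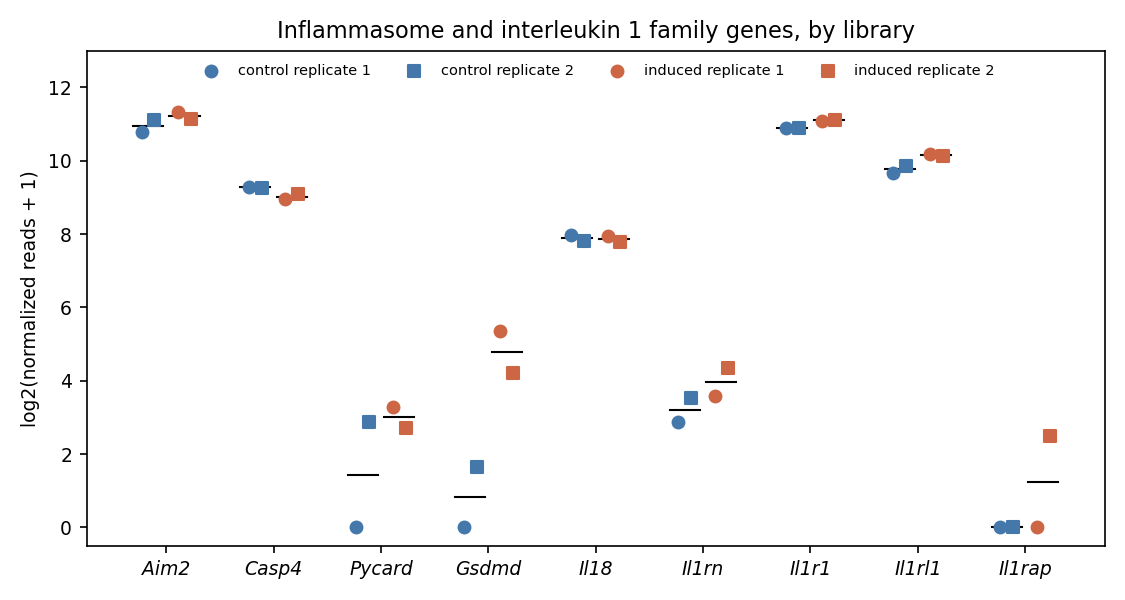
Levels of the 9 genes in each of the 4 libraries, on the deposited scale of log2(normalized reads + 1); points are libraries, coloured by group, and black lines are group means on that scale. Aim2, Casp4, Il18, Il1r1 and Il1rl1 lie far above Pycard, Gsdmd, Il1rn and Il1rap, and within each of these 5 genes the groups lie close together.

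The 9 genes fell into a well expressed and a barely detected set. Per kilobase of exon, averaged over the 4 libraries, Aim2 was the highest with 626 normalized reads, followed by Il1r1 with 322, Il18 with 228, Casp4 with 153 and Il1rl1 with 146. Far below them stood Gsdmd with 6.31, Il1rn with 2.13, Pycard with 1.35 and Il1rap with 0.102. The ranges over libraries separated Aim2 (503 to 734), Il1r1 (297 to 349) and Il18 (211 to 245) from each other and from the next gene down. Casp4 (133 to 169) and Il1rl1 (117 to 169) overlapped, and so did Gsdmd, Il1rn and Pycard. The range of Il1rap overlapped those of Pycard and Gsdmd. Gsdmd stood above Il1rn only in the induced libraries, with 16.9 and 7.41 against 1.96 and 3.52. In control libraries Gsdmd had 0 and 0.886 and Il1rn 1.14 and 1.90. Exon lengths are those of GENCODE M21, matched by Ensembl identifier, which may differ from the gene models behind the reads. In bulk RNA, fewer cells carrying a transcript and less of it per cell cannot be told apart.

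Aim2 (ENSMUSG00000037860, chromosome 1), the cytosolic DNA sensor, had 1760.5 and 2201 normalized reads in control libraries and 2569.5 and 2237 in induced libraries. Both induced libraries were above both controls, but control replicate 2 and induced replicate 2 were close, and the controls differed from each other more than those libraries did. The means were 1981 ± 312 and 2403 ± 235, with a log2 fold change of 0.28 (SE 0.13, 95% interval -0.036 to 0.60, limma adjusted p = 0.308). Control replicate 1 weighed on this value: without it the log2 fold change was 0.12, and without control replicate 2 it was 0.45 (adjusted p = 0.628 and 0.128).

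Relatives of Aim2 in the interferon-inducible family on chromosome 1 gave values to either side of 0. Ifi204 had a log2 fold change of 0.23, Ifi205 of 0.0059, Ifi203 of -0.053 and Mndal of -0.38, with adjusted p-values of 0.189, 0.993, 0.856 and 0.387. These genes are close copies that can share reads, and the exons of Ifi203 and Mndal overlap, so their values are uncertain. They were named after their values were seen.

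Casp4 (ENSMUSG00000033538, chromosome 9), the lipopolysaccharide-responsive caspase, had 626 and 614 normalized reads in control libraries and 493 and 544 in induced libraries. Both induced libraries lay below both controls. The log2 fold change was -0.26 (SE 0.11, 95% interval -0.52 to 0.0027, adjusted p = 0.266). Casp12, its neighbour on chromosome 9 and named for that after its values were seen, had 1449.9 and 1325 in control libraries and 1152 and 1225 in induced libraries, with a log2 fold change of -0.22 (SE 0.09, adjusted p = 0.256). Casp1 lies on the other side of Casp4 in the annotation.

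RefSeq promoter windows, 250 bases before to 50 after an annotated start (GRCm38.p6), were available for 9 of the 10 genes, with 14 starts in all, and none for Gsdmd. They were searched on both strands for the 10-base NF-kB consensus, the AP-1 letters TGANTCA and the STAT letters TTCNNNGAA. The NF-kB consensus occurred in 3 of the 14 windows, against 8.46% of all 32851 windows. Those were both Casp4 windows, which start 11 bases apart and share their matches, and 1 window of Il1r1. The AP-1 letters occurred in 1 window, of Il1rn (7.81% of all windows), and the STAT letters in 0 (8.30%). Other motifs were searched and set aside after their matches were seen. The TATA letters TATAAA occurred in 2 of the 14 windows (13.6% of all windows) and the loose interferon-response letters AANNGAAA in 7 (23.9%), and a stricter interferon-response form was also tried and left out. A match describes letters only, and none of these data show whether a factor was bound.

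The windows of Casp4 (chr9:5308599-5308898, plus strand) and Nfkbia (chr12:55492598-55492897, minus strand) are shown. Both hold the NF-kB consensus, and the pair was picked because the values of the genes lay on opposite sides of 0. Casp4 did not pass the test. Il1r1, which also holds the consensus, lay above 0 and did not pass either. Whether the consensus bears on direction was not tested. The windows of Ptgs2, Il18rap and Il1rl2 were also searched and hold none of the NF-kB, AP-1 and STAT letters. Capitals mark the matches, and in Casp4 the first capital run is 2 matches that overlap by 9 bases.
Casp4: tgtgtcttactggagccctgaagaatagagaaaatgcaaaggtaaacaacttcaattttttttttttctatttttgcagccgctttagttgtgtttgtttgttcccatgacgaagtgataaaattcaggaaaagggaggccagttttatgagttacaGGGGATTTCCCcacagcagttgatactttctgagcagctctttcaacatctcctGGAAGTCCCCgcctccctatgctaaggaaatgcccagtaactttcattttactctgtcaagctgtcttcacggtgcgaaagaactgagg
Nfkbia: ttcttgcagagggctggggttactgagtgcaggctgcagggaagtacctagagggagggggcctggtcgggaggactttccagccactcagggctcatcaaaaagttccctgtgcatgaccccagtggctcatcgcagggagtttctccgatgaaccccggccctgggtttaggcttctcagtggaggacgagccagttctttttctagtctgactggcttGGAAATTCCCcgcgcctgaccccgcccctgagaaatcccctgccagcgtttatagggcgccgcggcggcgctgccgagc

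Pycard, Gsdmd, Il1rn and Il1rap fell below the filter, so the main test does not cover them, and their whole reads are given. Pycard (ENSMUSG00000030793, chromosome 7), the adaptor that joins sensor to caspase, had 0 and 6 reads in control libraries and 8 and 6 in induced libraries. The groups overlapped, and the ratio of summed reads was 2.04 with an exact 95% counting interval of 0.736 to 6.47. Its exons overlap those of Gm45205, and the library kit does not mark the strand.

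Gsdmd (ENSMUSG00000022575, chromosome 15), the pore former, had 0 and 2 reads in control libraries and 37 and 19 in induced libraries. Both induced libraries stood above both controls, although they differed from each other, at 40.2 and 17.6 normalized reads. The ratio of summed reads, scaled for depth, was 24.5 with an exact 95% counting interval of 6.46 to 206.9, which covers counting error only. In limma without the filter its log2 fold change was 3.97, with an unadjusted p of 0.00348 and an adjusted p of 0.125, so it did not pass, and limma voom on all reads gave an adjusted p of 0.181. Of the 11413 genes under the filter, 13.1% had both induced libraries above both controls, 7.27% had an unadjusted p under 0.05 in either direction, 0.0526% had an adjusted p under 0.05, and 0.114% had a log2 fold change at least as large. The genes were chosen by symbol with earlier results of these data known, and Gsdmd is singled out here after its values were seen.

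**Figure D2:**
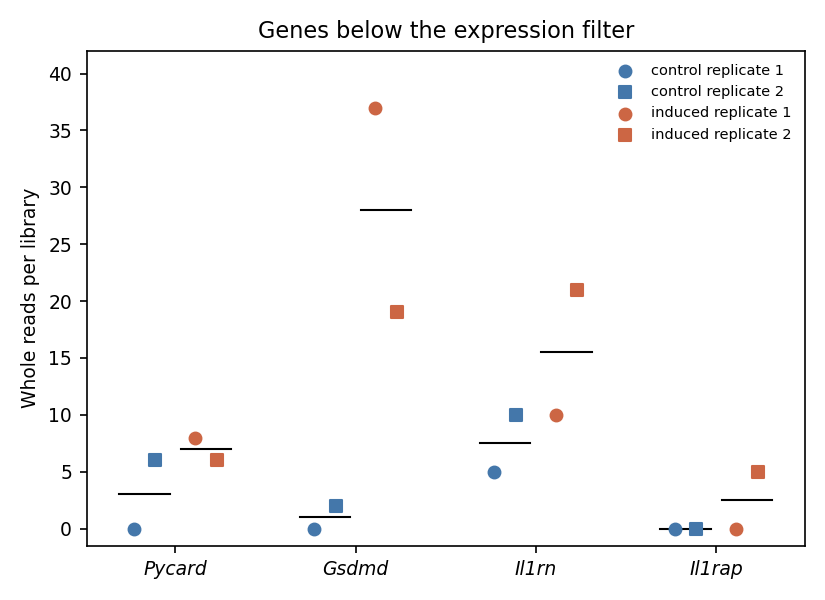
Whole reads per library of the 4 genes below the expression filter; points are libraries, coloured by group, and black lines are group means. Gsdmd has 37 and 19 reads in the induced libraries and 0 and 2 in the controls, while the reads of Pycard overlap between groups and Il1rap has reads in 1 library.

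Macrophages and microglia use this pathway strongly, so their markers are given beside it. Of 18 such symbols 11 had a row, and the summed level was 2151 to 2549 normalized reads in control libraries and 2135 to 2165 in induced libraries. Most of that sum was Tmem119, and without it, a choice made after its values were seen, the sums were 320.2 to 365 and 520.3 to 556. The myeloid defining genes were at or near 0: Ptprc had 5, 0, 0 and 0 reads, Itgam 0, 0, 0 and 3, Adgre1 0, 0, 0 and 4, and Spi1 0, 3, 0 and 0, in the order of control replicates 1 and 2 and induced replicates 1 and 2. The exons of this Itgam entry overlap those of another entry of the same name, so its count is uncertain. The 4 markers that passed the filter were not called. Tmem119 had 2184 and 1830 normalized reads in control libraries and 1579 and 1644 in induced libraries, both below both controls (log2 fold change -0.31, adjusted p = 0.190). Trem2, Cd68 and Aif1 had both induced libraries above both controls. Trem2 had 194 ± 24.3 normalized reads in control libraries and 320.4 ± 54.4 in induced libraries, Cd68 79.3 ± 12.3 and 119 ± 4.29, and Aif1 46.5 and 67.4 against 73.9 and 91.8 (adjusted p = 0.113, 0.219 and 0.362). The part of these markers in the values of Gsdmd was not tested.

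Il18 (ENSMUSG00000039217, chromosome 9), the cytokine matured by the inflammasome, had 253 and 225 normalized reads in control libraries and 245 and 218 in induced libraries. The groups overlapped. The log2 fold change was -0.047 with a 95% interval of -0.42 to 0.32 (SE 0.15, adjusted p = 0.893). Of the other interleukin 1 ligands, Il33 had 24, 18, 17 and 27 reads and Il1a 0, 9, 0 and 6, in the same order of libraries, and both were under the filter. The exons of Il1a overlap another gene.

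Il1rn (ENSMUSG00000026981, chromosome 2), the receptor antagonist, had 5 and 10 reads in control libraries and 10 and 21 in induced libraries. After scaling the groups did not overlap, at 6.29 and 10.5 against 10.9 and 19.5 normalized reads, but control replicate 2 and induced replicate 1 held the same number of reads. The ratio of summed reads was 1.80 with a counting interval of 0.945 to 3.60, and the adjusted p in limma without the filter was 0.661.

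Il1rl1 (ENSMUSG00000026069, chromosome 1), the receptor chain for interleukin 33, had the largest log2 fold change of the 5 tested genes in the fit of all 4 libraries. It had 807 and 933 normalized reads in control libraries and 1164 and 1126 in induced libraries, with no overlap between groups. The means of 870.2 ± 88.9 and 1145 ± 26.6 gave a log2 fold change of 0.40 (SE 0.10, 95% interval 0.15 to 0.65), and the adjusted p of 0.115 missed the threshold. Il1r1 (ENSMUSG00000026072, chromosome 1), the signalling receptor of interleukin 1, had 1891 and 1909 in control libraries and 2186 and 2219 in induced libraries. Its replicates lay close together and its groups apart, and the log2 fold change was 0.21 (SE 0.07, 95% interval 0.05 to 0.38, adjusted p = 0.176).

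Il1rap (ENSMUSG00000022514, chromosome 16), the chain that both receptors need to signal, had 0 reads in 3 libraries and 5 in induced replicate 2. At these depths a count of 0 allows up to 0.116 CPM in control replicate 1, 0.0967 CPM in control replicate 2 and 0.0997 CPM in induced replicate 1. No fold is given, since both groups were at or under 3 reads per library on average. Its exons overlap those of the antisense gene Gm20319. The receptor genes Il1r1 and Il1rl1 were thus measured at 642 reads or more in every library, with their partner chain at or near the floor.

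Il1r1 and Il1rl1 each have a pair of annotated starts, and reads counted per gene cannot tell which was used. The windows of Il1rl1 (chr1:40429320-40429619 and chr1:40439379-40439678, plus strand) hold none of the NF-kB, AP-1 and STAT letters, and that of Il1r1 at chr1:40266336-40266635, plus strand, holds the NF-kB consensus once, in capitals. They are shown because these genes had the lowest p-values among the 5 tested. The other Il1r1 window, chr1:40224830-40225129 on the plus strand, holds none of these letters and is not shown.
Il1rl1 upstream start: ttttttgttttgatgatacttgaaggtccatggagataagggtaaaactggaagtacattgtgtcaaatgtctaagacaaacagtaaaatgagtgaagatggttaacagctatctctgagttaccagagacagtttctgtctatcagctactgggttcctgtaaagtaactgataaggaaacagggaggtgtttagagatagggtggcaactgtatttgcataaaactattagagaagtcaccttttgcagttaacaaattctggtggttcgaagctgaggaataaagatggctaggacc
Il1rl1 downstream start: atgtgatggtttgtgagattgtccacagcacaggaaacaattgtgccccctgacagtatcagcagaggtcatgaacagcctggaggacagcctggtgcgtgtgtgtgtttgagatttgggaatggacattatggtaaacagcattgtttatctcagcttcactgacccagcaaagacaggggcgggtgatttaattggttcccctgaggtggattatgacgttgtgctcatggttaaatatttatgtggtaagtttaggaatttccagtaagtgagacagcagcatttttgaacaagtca
Il1r1 downstream start: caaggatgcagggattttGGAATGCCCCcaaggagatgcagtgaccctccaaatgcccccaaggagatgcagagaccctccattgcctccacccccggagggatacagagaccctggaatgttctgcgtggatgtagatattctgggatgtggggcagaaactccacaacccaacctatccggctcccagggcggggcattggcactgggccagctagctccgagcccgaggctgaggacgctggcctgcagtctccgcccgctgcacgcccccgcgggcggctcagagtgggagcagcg

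Both genes belong to a cluster of 6 receptor genes on chromosome 1, in the order Il1r2, Il1r1, Il1rl2, Il1rl1, Il18r1 and Il18rap. The 4 that passed the filter all had both induced libraries above both controls, as did 26.2% of the tested genes. Il18rap, the accessory chain of the interleukin 18 receptor, rose 1.83-fold, from 201 and 177 normalized reads in the controls to 336 and 354 in induced libraries (log2 fold change 0.87, SE 0.14, adjusted p = 0.0383). Il1rl2, the receptor of the interleukin 36 cytokines, had 235 and 182 in control libraries and 304 and 301 in induced libraries (log2 fold change 0.55, SE 0.17, adjusted p = 0.169). Il18r1, the binding chain that pairs with Il18rap, had 0, 0, 0 and 9 reads, and Il1r2, a decoy receptor, 0, 1, 2 and 0. The cluster was set out after the values of its genes were seen.

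**Figure D3:**
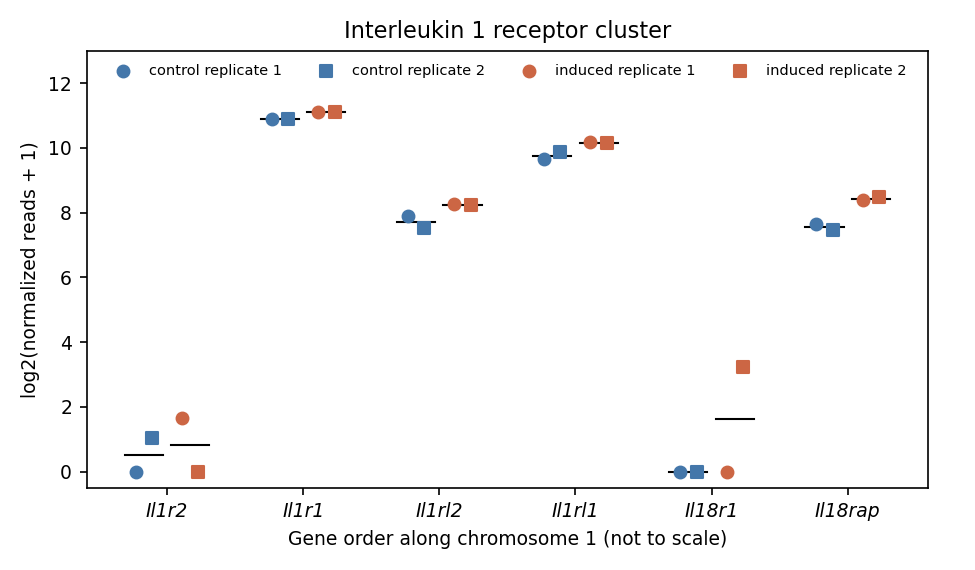
Levels of the 6 receptor genes of the chromosome 1 cluster in gene order, on the scale of log2(normalized reads + 1); points are libraries, coloured by group, and black lines are group means on that scale. Il1r1, Il1rl2, Il1rl1 and Il18rap have both induced libraries above both controls, while Il1r2 and Il18r1 lie at or near 0.

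Other genes of the pathway came from 8 lists by role, which hold 82 genes with a row, 67 of them tested. Of those, 10 rose, 1 fell and 56 did not pass, against 2.08% of all tested genes called as higher and 1.34% as lower. Their median log2 fold change was 0.017. The lists were drawn up with earlier results on P2rx7, Ptgs2, Nos2, Nfkbiz, Lcn2 and others known, so these counts are not independent evidence.

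Of 11 tested sensors and sensor partners 0 rose and 0 fell (median -0.053) and 3 had an unadjusted p under 0.05, and of 7 tested caspases and pore genes 0 were called (median 0.034) and 3 had one. Over all tested genes 3.42% were called and 19.1% had an unadjusted p under 0.05, so lists of this size would hold few or no calls at that share. Among the sensors the most expressed were the helicase genes Ddx3x and Dhx9, with log2 fold changes of 0.17 and 0.15 (limma adjusted p = 0.205 and 0.248). Nlrp3, the sensor downstream of P2rx7, had 0 and 4 reads in control libraries and 0 and 0 in induced libraries. Casp8, the initiator caspase of death receptor signalling, had a log2 fold change of 0.034 (limma adjusted p = 0.838). Its direction turned when a library was left out.

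Of 11 tested inhibitors and modulators 1 fell and 0 rose (median -0.0096). Trim30a, a tripartite motif protein known to restrain NF-kB and Nlrp3 signalling, had 2199 and 1964 normalized reads in control libraries and 1482 and 1511 in induced libraries, and fell by 0.47 on the log2 scale (SE 0.08, adjusted p = 0.0476). Txnip, a thioredoxin-binding protein, had 11750 and 6162 in control libraries and 6254 and 8615 in induced libraries, with a spread in the controls larger than the difference between groups. Xiap, an inhibitor of apoptotic caspases, had a log2 fold change of -0.0096 (adjusted p = 0.966).

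Among the other interleukin 1 receptor genes Il18rap was the 1 of 4 tested that rose, and 0 fell. Sigirr, an inhibitory receptor of the family, had 646 and 720.3 normalized reads in control libraries and 528 and 513 in induced libraries (log2 fold change -0.39, SE 0.11, adjusted p = 0.135). Of 21 tested genes of receptor signalling 2 rose and 0 fell (median 0.0093). Map3k7, the kinase TAK1 that relays interleukin 1 signals, rose 1.39-fold, from 2984 and 3109 normalized reads in the controls to 4091 and 4372 (adjusted p = 0.0288). Nfkbia, the inhibitor of NF-kB that NF-kB itself induces, rose 1.37-fold, from 3132 and 3348 to 4547 and 4309 (adjusted p = 0.0342). Nfkb1 and the TAK1 adaptor gene Tab2 had log2 fold changes of 0.30 and 0.0093 (limma adjusted p = 0.120 and 0.947).

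Genes that interleukin 1 and NF-kB are known to induce held most of the calls. Of 10 tested 6 rose, 0 fell and 4 did not pass, with a median log2 fold change of 0.77. Over all tested genes 2.08% were called as higher. This list was drawn up with earlier results on Lcn2, Ptgs2, Nos2, Nfkbiz and others known, so its count is not independent evidence. By size of change the calls were Lcn2, an iron-binding lipocalin, at 1.54, Ptgs2, a cyclooxygenase, at 1.42, Nos2, the inducible nitric oxide synthase, at 1.16 and the co-activator gene Nfkbiz at 0.97 (adjusted p = 0.0260, 0.00637, 0.0226 and 0.00528). The neutrophil chemokine gene Cxcl5 rose 1.48-fold, from 9177 and 9569 normalized reads to 13674 and 14149 (adjusted p = 0.0121), and Zc3h12a, an RNase that degrades cytokine messages, rose 1.34-fold (adjusted p = 0.0491). Of the 4 that did not pass, the chemokine genes Ccl7 and Ccl2 had log2 fold changes of 0.25 and -0.11 (limma adjusted p = 0.122 and 0.378). Saa3 and Cxcl1 had log2 fold changes of 1.61, the largest of the list, and 0.44 (limma adjusted p = 0.0936 and 0.0506). The call of Cxcl1 depended on the filter, as it passed with the filter of 5 CPM (adjusted p = 0.0483). Il6, under the filter, had 11 and 11 reads in control libraries and 50 and 34 in induced libraries and was named after its values were seen. It did not pass in limma without the filter (adjusted p = 0.200). Of genes under the filter, 13.1% had both induced libraries above both controls. The other response genes under the filter were near 0 reads: Icam1 had 3 and 1 in control libraries and 0 and 4 in induced libraries, Csf2 0 and 0 against 3 and 0, and Cxcl2 0 and 0 against 2 and 1.

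**Figure D4:**
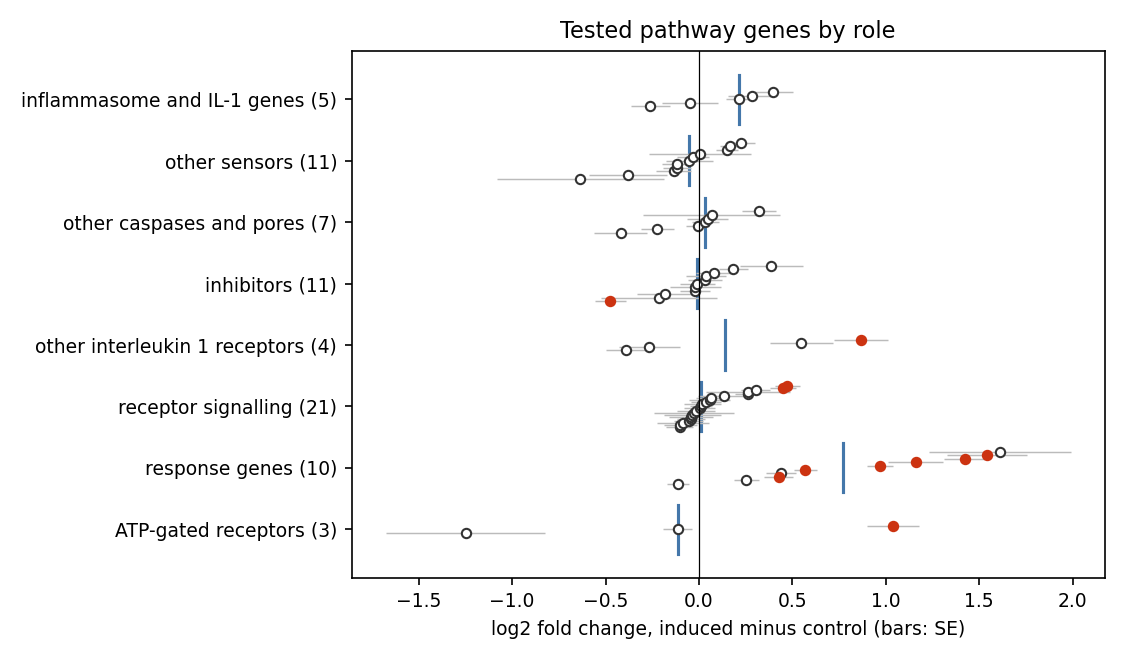
Log2 fold change of each tested gene by role, induced minus control, with its standard error; the number tested is in brackets, filled points passed limma's adjusted p of 0.05, and blue lines are medians. The 5 tested inflammasome and interleukin 1 genes are all open points, and 6 of the 10 response genes are filled. The lists were drawn up with earlier results on several of these genes known.

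Of the calls in these lists, those of Ptgs2, Nfkbiz and Cxcl5 were kept whichever of the 4 libraries was left out. Those of Il18rap, Map3k7, Nfkbia, Trim30a, Zc3h12a and P2rx7 ended with each library left out (adjusted p up to 0.160, 0.110, 0.124, 0.148, 0.218 and 0.0964). That of Lcn2 ended without control replicate 1, control replicate 2 or induced replicate 1 (0.0631, 0.0657 and 0.0765), and that of Nos2 without control replicate 2 or induced replicate 1 (0.0580 and 0.0681). The exons of P2rx7 overlap the microRNA gene Mir8115, those of P2rx3 overlap Ssrp1, and those of Txnip overlap the antisense gene Gm15441.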

How the data were processed

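Per the labels' protocols, Trizol RNA went into TruSeq RNA libraries, a kit that does not mark the strand. HISAT, Cufflinks and the build mm9 are named in the submitters' processing notes. Not given in the sources used here are the read counter and the scaling between libraries. The deposited values are log2: 2 to their power, minus 1, gave whole multiples of 1 step per library for 100% of values (tolerance 0.01), so they are log2(normalized reads + 1), and whole reads were recovered.

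The 13276 genes averaging at least 1 CPM were tested on the deposited log2 values in limma 3.58.1 (R 4.3.3), with a trend, no covariate, two-sided p-values and Benjamini-Hochberg adjustment (threshold 0.05). The pseudocount of 1 understates changes of genes with few reads. A fold is the ratio of group means, and a log2 fold change the difference of mean log2 values, induced minus control. The script was tested on simulated data. With 2 libraries against 2, an exact permutation test cannot go below p = 0.333 and was not used. Counting intervals of read ratios are exact binomial at 95%, floors are 3 reads, and both cover counting error only.

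The members and lists were chosen with earlier results of these data known. Named are all members, Pja2, P2rx7 and P2rx3, and per list up to 4 genes past the threshold and the 2 most expressed others; 1 gene that this rule names is not reported here. Promoter windows come from RefSeq (GRCm38.p6), matched by symbol, while the reads were aligned to mm9, so no gene coordinates are given. Alternatives were other filters, pseudocount, scaling, voom, no trend, a replicate block and each library left out. Libraries of a group differed by more than counting noise, with a mean chi-square of 18.3 (controls) and 14.0 (induced) per gene.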

Additional observations from a re-analysis of the deposited data

How the results depend on the processing

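The counts for the inflammasome and interleukin 1 family genes stayed at 0 higher and 0 lower under each alternative that kept all 4 libraries. In the fit as designed 3.42% of all tested genes were called. At that share 5 tested genes would hold few or no calls, so a steady 0 says little about stability. Over all tested genes, the filter of 5 CPM, the pseudocount of 8, scaling by library totals and voom gave 262 to 281 higher and 148 to 188 lower. Other alternatives moved these counts further. Without the filter 100 genes were higher and 59 lower, without a trend in the variance prior 64 and 52, against 276 and 178 in the fit as designed. Of the other pathway genes 10 were higher and 1 lower as designed, 3 and 0 without the filter, and 3 and 0 without the trend, and the higher response genes numbered 6, 3 and 2. Leaving out 1 library gave 113 to 204 genes higher and 78 to 136 lower, 3 to 5 other pathway genes higher and 0 lower, and 3 to 5 response genes higher. A fit without 1 library has fewer residual degrees of freedom, and the group left with 1 library is assumed to vary like the other, so lost power and dependence on a library cannot be told apart. With a replicate block 157 genes were higher and 104 lower, and 6 other pathway genes were higher and 0 lower. Replicate numbers are shared by the groups without a stated link, and the deviations of same-numbered libraries had a correlation of -0.10 across genes, so the libraries were not treated as pairs. The block ended the calls of Il18rap, Map3k7, Nfkbia, Trim30a and Zc3h12a (adjusted p = 0.0698, 0.0540, 0.0720, 0.0799 and 0.0982). Of the 11 called pathway genes, Ptgs2, Nfkbiz and Cxcl5 kept their calls without the filter (adjusted p = 0.0190, 0.0146 and 0.0302), and Ptgs2, Nfkbiz and P2rx7 without the trend (0.0492 for each). Scaling by library totals ended the call of Zc3h12a (0.0520). Values near 0 changed sign with a library left out: over the 4 omissions Il18 ran from -0.13 to 0.036, Casp8 from -0.013 to 0.081, Txnip from -0.68 to 0.25, Xiap from -0.13 to 0.11 and Tab2 from -0.0072 to 0.026. Outside these, the log2 fold change of Il1rl1 ran from 0.29 to 0.50 and its adjusted p from 0.0870 to 0.347, and the values of Il1r1 ran from 0.20 to 0.22 and from 0.164 to 0.495. Depth limits Pycard, Gsdmd, Il1rn and Il1rap, each with at most 37 reads in a library, and limma voom without the filter, chosen after seeing the data, left all 4 uncalled. The cause of the other changes was not tested.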

Other observations

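The NAIP sensors, which recognize bacterial proteins and act through Nlrc4, differed in level in HT-22 cells. Naip2 had 1589 ± 43.1 normalized reads in control libraries and 1464 ± 45.8 in induced libraries, Naip6 1161 ± 22.1 and 1071 ± 27.0, and Naip5 791 ± 3.23 and 774 ± 9.75, and none of these passed the test (adjusted p = 0.457, 0.484 and 0.877). Naip1 was near the filter, with 46 and 32 reads in control libraries and 19 and 41 in induced libraries (adjusted p = 0.495). These genes are close copies on chromosome 13 that can share reads, so their separate values are uncertain, and Nlrc4 had no row and was not analysed here. Il18bp, a soluble binder of interleukin 18, had 253 ± 19.5 and 211 ± 29.3 (adjusted p = 0.442), and its exons overlap Numa1. Panx1, a channel that can release ATP, had 0 and 0 reads in control libraries and 3 and 0 in induced libraries.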
